A study of Mus musculus with 72 samples.

Results

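The NR4A nuclear receptors Nr4a1 (also called Nur77), Nr4a2 (Nurr1) and Nr4a3 (Nor1) were followed through 72 RNA-seq libraries of mouse melanoma cell lines. These 3 genes were chosen by symbol out of 50600 in the count table, after earlier results had shown them among the genes that GRP raised, so they were selected on measured values of the GRP against mock contrast. NR4A proteins are transcription factors of the nuclear receptor superfamily for which no classical activating hormone is established. Their activity is set largely by how much of them is made. They are immediate-early genes: a stimulus arriving at a cell-surface receptor can switch on their transcription within minutes, commonly through cAMP and calcium signals that act on the factors CREB and MEF2, and the RNA is short-lived. In melanocytes, the melanocortin receptor is one such upstream receptor, and NR4A factors have been linked there to DNA repair.

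Each line was starved of serum for 18 h in 0.5% FCS and then received, for 4 h, vehicle (mock, 0.1% DMSO), 10 nM GRP, 1 µM RC-3095 (RC) or GRP and RC together. GRP is gastrin-releasing peptide, the natural agonist of the G protein-coupled receptor GRPR, and RC-3095 is a GRPR antagonist. Lines 1057 and 1064 were derived from female mice of the genotype Tyr::NRASQ61K/°; Cdkn2a-/-; Tyr::CreA/°; Cdh1dF/dF, in which the Tyr promoter drives both the NRAS oncogene and Cre in melanocytes, and they make Grpr themselves. Line 1181, from a male labelled Tyr::NRASQ61K/°; Cdkn2a-/-; °/°; Cdh1dF/dF, and line 1014, from a female labelled Tyr::NRASQ61K/°, carried, after plasmid transfection and geneticin selection, either CMV::tGFP (1181-Ctrl, 1014-Ctrl) or CMV::Grpr/tGFP (1181-Grpr, 1014-Grpr). All 6 lines therefore carried the NRAS transgene, and each of the 24 groups (6 lines, 4 treatments) had 3 libraries of 1 cell line. The label of 1181 gives Cdh1 as dF/dF, like those of 1057 and 1064, but °/° in the place of Cre. The paper describes 1181 as Ecad-positive. Library totals ran from 19512882 to 46862053 counted reads.

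Before any treatment effect, 2 libraries went against their labels. The library labelled 1014-Ctrl mock replicate 2 held Grpr at 48.1 CPM (read counts scaled to the library total), the Y-linked gene Ddx3y at 64.2 CPM and Xist at 172 CPM. All other 1014-Ctrl libraries held Ddx3y at 0 and Xist at 583 to 1051 CPM. The library labelled 1181-Grpr GRP+RC replicate 2 held neither Grpr nor Ddx3y, and held Xist at 794 CPM. In the other 1181-Grpr libraries Ddx3y (37.1 to 63.3 CPM) and Xist (193 to 248 CPM) were both present, whereas Xist was at most 0.641 CPM in 1181-Ctrl. Whether these libraries hold cells of more than 1 line, and whether the 2 libraries were exchanged, was not tested, so comparisons of 1181-Grpr with 1181-Ctrl and means that include 1181-Grpr rest on its label. Grpr itself was 187 to 275 CPM in 1057, 472 to 1284 CPM in 1064 and 107 to 620.2 CPM in 1014-Grpr but 8.49 to 79.9 CPM in 1181-Grpr, and at most 0.0915 CPM in the controls apart from the library named above. Melanocyte markers (Mitf, Sox10, Mlana, Pmel, Dct, Tyr and Tyrp1) summed to between 5426 and 37584 CPM per library, against at most 0.308 CPM for leukocyte, 9.25 CPM for endothelial, 5.23 CPM for keratinocyte and 35.1 CPM for fibroblast markers.

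The 3 genes lie on separate chromosomes, and no other annotated gene overlaps any of them. In GRCm38, Nr4a1 (ENSMUSG00000023034) spans chr15:101254269-101274795 on the plus strand with 4 annotated transcripts, of which 3 are protein-coding. Nr4a2 (ENSMUSG00000026826) spans chr2:57106830-57124003 on the minus strand with 6 transcripts, 3 of them protein-coding. Nr4a3 (ENSMUSG00000028341) spans chr4:48045153-48086447 on the plus strand with 4 transcripts, 2 of them protein-coding. The exons of each gene merge into 3509, 4059 and 5987 bases respectively.

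The promoters of the 3 genes were searched for the core of the cAMP response element (CRE). This core is the 5-base motif TGACG or its reverse complement CGTCA, which CREB-type factors can bind. RefSeq promoter windows ran from 250 bases before to 50 bases after the annotated start of a gene. Each of the 3 windows held 4 copies of the motif. Of 32841 windows of the same length in RefSeq GRCm38.p6, 20.8% held at least 1 copy, 5.02% at least 2, 1.04% at least 3 and 0.231% (76 windows) at least 4. The motif holds a CG pair, and G and C made up 74.4%, 80% and 61.2% of the Nr4a1, Nr4a2 and Nr4a3 bases printed below. The 32841 windows were not matched for this content. The shares therefore do not say how rare 4 copies are among promoters of like content. The upstream sequences are given here because they show this shared feature, each 5′ to 3′ in the direction of its gene with the CRE cores in capitals. Nr4a1 is chr15:101266596-101266845 and lies inside the gene, before the RefSeq start rather than the outermost annotated one, Nr4a2 is chr2:57124004-57124253 on the minus strand, and Nr4a3 is chr4:48045055-48045152, the 98 bases that precede its outermost exon.
Nr4a1: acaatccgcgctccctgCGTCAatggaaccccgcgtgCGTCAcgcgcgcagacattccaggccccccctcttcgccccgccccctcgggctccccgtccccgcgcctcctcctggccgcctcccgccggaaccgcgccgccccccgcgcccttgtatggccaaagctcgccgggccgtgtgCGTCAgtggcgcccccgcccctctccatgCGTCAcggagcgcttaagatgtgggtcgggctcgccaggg
Nr4a2: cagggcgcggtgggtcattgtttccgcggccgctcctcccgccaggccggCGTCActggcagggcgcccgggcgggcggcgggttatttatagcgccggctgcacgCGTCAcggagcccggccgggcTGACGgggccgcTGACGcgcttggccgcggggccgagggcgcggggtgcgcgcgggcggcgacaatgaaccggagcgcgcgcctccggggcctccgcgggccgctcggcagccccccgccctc
Nr4a3: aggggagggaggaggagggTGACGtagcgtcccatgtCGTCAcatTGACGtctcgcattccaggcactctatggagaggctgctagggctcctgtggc
In Nr4a1 all 4 cores read CGTCA and began at -233, -213, -69 and -40, counted in bases from the RefSeq start. In Nr4a2 the cores began at -200, -144, -123 and -111, with 2 in each orientation. In Nr4a3 they began at -231, -213, -205 and -147, and the copy nearest to the start falls in the part not printed. The complete 8-base CRE TGACGTCA was in none of the 3 windows (1.79% of all windows), nor was the NR4A response element AAAGGTCA (1.51%). Also absent were a single spelling of the MEF2 motif, CTA and TAG with 4 bases between (3.69%), and the CArG box (1.63%). Each was searched on both strands. Other spellings of the MEF2 motif were not searched. The Nr4a2 bases printed above hold TTATTTATAG, which differs from the searched spelling only in its first base. These matches describe letters in a window and do not show that a factor was bound.

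**Figure D1:**
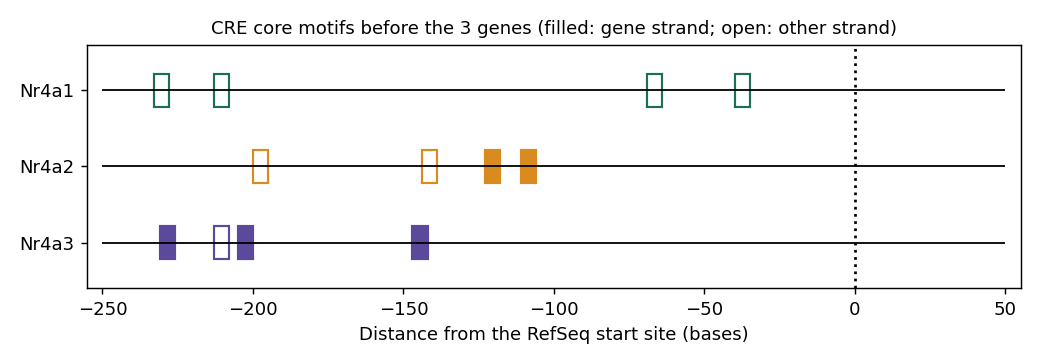
Positions of the CRE core motif in the promoter windows of the 3 NR4A genes, in bases from the RefSeq transcription start (0 on the horizontal axis), with the strand relative to the gene marked by the symbol. Each window from 250 bases before to 50 bases after the start holds 4 copies, all of them upstream.

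At rest the paralogs were far apart in level. On the TPM scale, which also corrects for transcript length and so allows comparison between genes, Nr4a1 was the highest of the 3 in all 72 libraries and made up 77.6% to 99.5% of their summed TPM. Mock Nr4a1 averaged 209 ± 8.44 TPM in 1057, 219 ± 17.0 TPM in 1014-Grpr, 277 ± 109 TPM in 1014-Ctrl, 401 ± 69.4 TPM in 1181-Grpr, 434 ± 161 TPM in 1064 and 599 ± 67.7 TPM in 1181-Ctrl (SD, n = 3 each). Neighbours in that order mostly lay within their spread, and the order was not tested.

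Resting Nr4a2 was lower, from 3.45 ± 1.09 TPM in 1181-Ctrl to 14.4 ± 1.38 TPM in 1064, with 4.90 ± 0.931 TPM in 1181-Grpr, 5.39 ± 1.70 TPM in 1014-Ctrl, 7.79 ± 0.810 TPM in 1014-Grpr and 8.35 ± 0.684 TPM in 1057 between them (SD, n = 3 each). Resting Nr4a3 was 0.987 ± 0.643 TPM in 1181-Ctrl, 1.59 ± 0.280 TPM in 1057, 2.41 ± 0.894 TPM in 1014-Grpr, 3.74 ± 1.09 TPM in 1181-Grpr and 4.10 ± 3.13 TPM in 1014-Ctrl (SD, n = 3 each). In 1064 it stood far higher, at 61.3 ± 42.9 TPM (SD, n = 3), although its 3 mock libraries were widely apart. The 1014-Ctrl values include replicate 2, which goes against its label and held Nr4a3 at 13.3 CPM against 3.51 and 4.30 CPM in the other mock libraries, and Nr4a1 at 282 CPM against 177 and 127 CPM. In bulk RNA, a higher level in every cell and a larger share of expressing cells cannot be told apart.

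**Figure D2:**
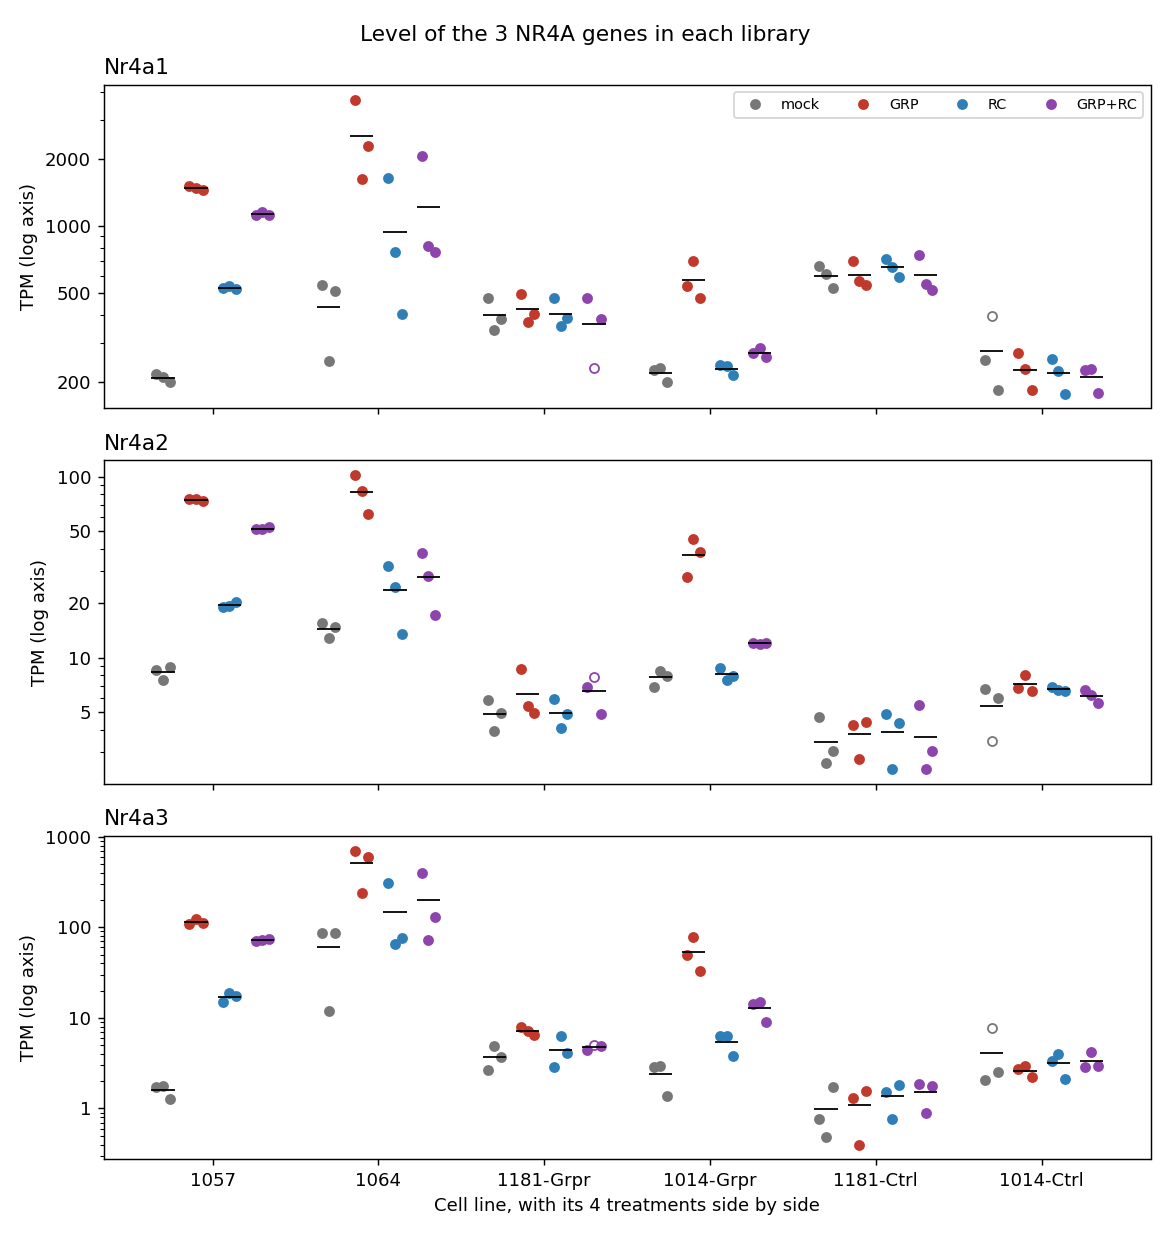
TPM (log axis) of Nr4a1, Nr4a2 and Nr4a3 in every library by line and treatment, with a bar at each group mean of 3 libraries. Open circles mark the 2 libraries that go against their labels; in 1057 the 4 treatments form separate tight groups for every gene, whereas in the control lines they overlap.

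GRP against mock, the contrast that chose the genes, is given as a description: levels, fold changes and counts of calls, with no p-value. How often the groups of other genes do not overlap was not counted, so separated groups are a description here and below. In 1057 all 3 genes were higher in every GRP library than in any mock library. Nr4a1 stood at 163, 154 and 145 CPM in mock and 1156, 1155 and 1125 CPM with GRP, a log2 fold change of 2.89 ± 0.037 (SE). Nr4a2 went from 10.6, 9.10 and 10.6 CPM to 94.1, 96.6 and 93.4 CPM, a log2 fold change of 3.23 ± 0.049 (SE). The smallest of the 3 at rest made the widest move. Nr4a3 was 3.17, 3.14 and 2.23 CPM in mock and 203, 233 and 207 CPM with GRP, 75.4-fold on group means and 6.23 ± 0.12 (SE) on the log2 scale. Ranked by log2 fold change in 1057, Nr4a3 was 7th of 14195 genes tested, Nr4a2 76th and Nr4a1 95th.

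In 1014-Grpr, where the receptor comes from a CMV construct, the same order was seen. Nr4a1 was 158, 161 and 134 CPM in mock and 396, 522 and 353 CPM with GRP, a log2 fold change of 1.49 ± 0.13 (SE). Nr4a2 was 7.95, 9.70 and 8.77 CPM in mock and 33.4, 55.3 and 46.9 CPM with GRP, a log2 fold change of 2.36 ± 0.16 (SE). Nr4a3 was 4.87, 5.02 and 2.24 CPM in mock and 88.8, 143 and 59.3 CPM with GRP, a log2 fold change of 4.55 ± 0.40 (SE). No GRP library of the 3 genes fell within the range of the mock libraries. Grpr RNA moved in opposite directions in these lines, from 125 ± 16.7 to 529.7 ± 116 CPM in 1014-Grpr and from 274 ± 1.08 to 204 ± 6.55 CPM in 1057 (SD, n = 3), and its part in the NR4A values was not tested.

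In 1064 the 3 genes were again higher in every GRP library than in any mock library, but the replicates of Nr4a1 and Nr4a3 lay far apart, most of all for Nr4a3 in mock. Nr4a1 was 370.4, 178 and 383 CPM in mock and 2799, 1288 and 1797 CPM with GRP (replicates 1, 2 and 3), a log2 fold change of 2.66 ± 0.57 (SE). Nr4a2 was 17.4, 15.1 and 18.2 CPM in mock and 127, 108 and 79.9 CPM with GRP, a log2 fold change of 2.63 ± 0.33 (SE). Nr4a3 was 141, 20.4 and 157 CPM in mock and 1289.7, 457 and 1141 CPM with GRP, a log2 fold change of 3.18 ± 0.92 (SE). By its GRP level this line held more Nr4a3 than any other line.

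A gene is called changed when its Benjamini-Hochberg adjusted p over all genes tested in edgeR's quasi-likelihood test is under 0.05 and its absolute log2 fold change is above 1. For GRP against mock, 3 of 3 NR4A genes were called higher in 1057, where 4.96% of all genes tested were, 2 of 3 (Nr4a1 and Nr4a2) in 1064 against 1.49% of all genes, 3 of 3 in 1014-Grpr against 3.15%, and 0 of 3 in 1181-Grpr against 0%. Since this contrast chose the genes, nothing is read from these counts. With the replicate number as a block all 3 were called in 1064, where the numbers pair the libraries and Nr4a3 then had a log2 fold change of 3.36 ± 0.50 (SE). Without replicate 1 or without replicate 2 none of the 3 was called in 1064, with log2 fold changes of 2.46 and 2.62 for Nr4a1, 2.50 and 2.55 for Nr4a2 and 3.17 and 3.04 for Nr4a3, and without replicate 3 or without the filter on low counts the call of Nr4a1 was lost at 2.91 and 2.66. Nr4a3 was called there by DESeq2, by limma on TPM and in one fit of all 72 libraries.

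**Figure D3:**
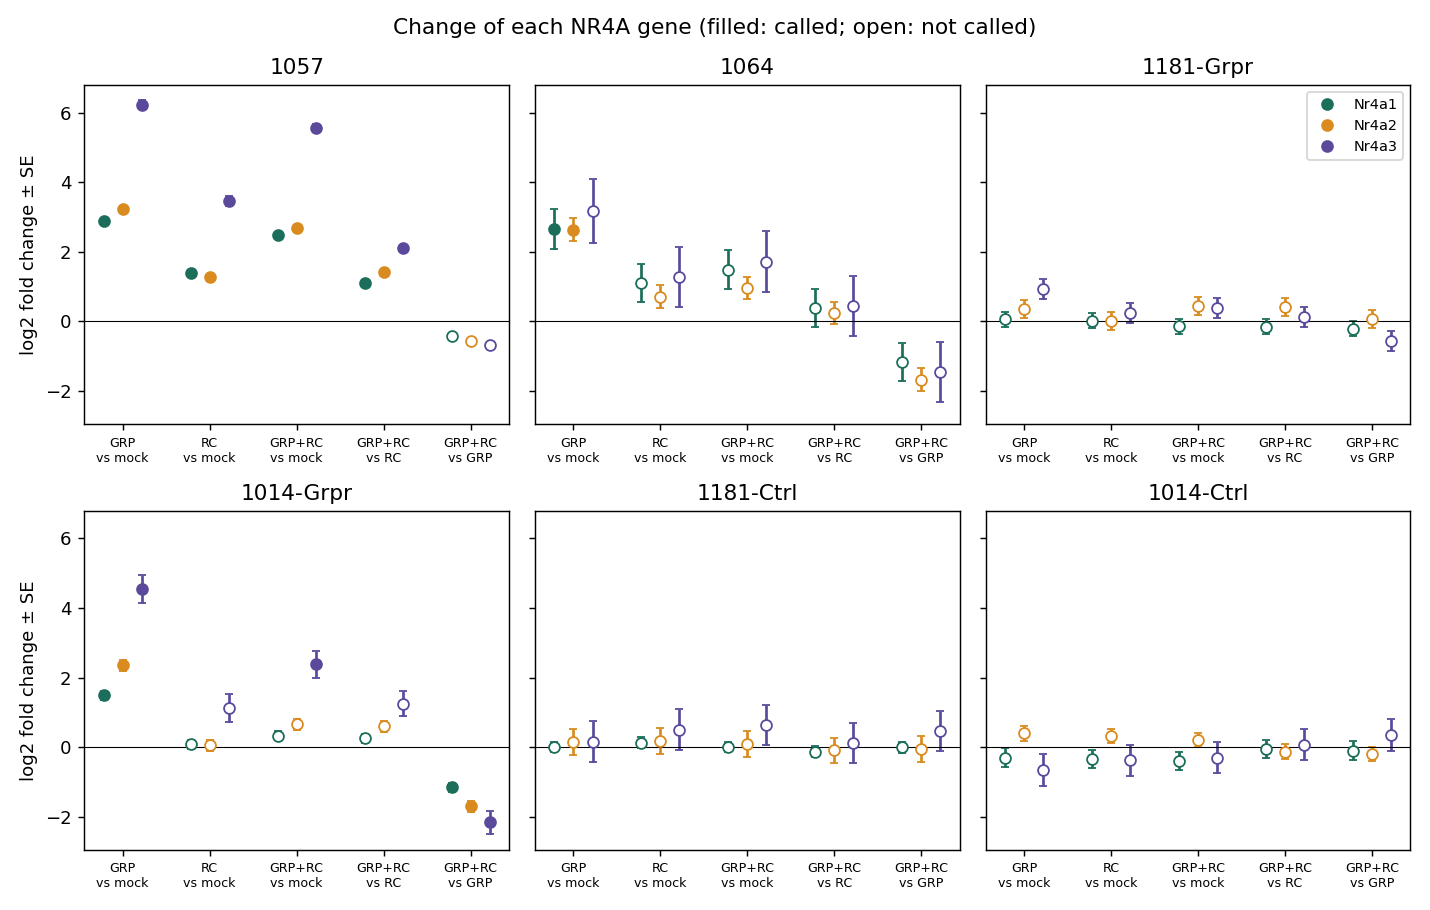
Log2 fold change of the 3 NR4A genes in each line and contrast from edgeR's quasi-likelihood fit, with bars of 1 SE. In 1057 all contrasts against mock and GRP+RC against RC lie above the fold limit of 1, whereas the 2 control lines scatter about 0.

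Whether the antagonist alone moved these genes was asked of the RC against mock contrast, which was not used to choose them but shares the mock libraries with the contrast that was. In 1057 all 3 genes rose with RC alone. Nr4a1 reached 400.1, 408 and 398 CPM, Nr4a2 23.8, 23.9 and 25.4 CPM and Nr4a3 27.7, 34.5 and 31.7 CPM, all above every mock library. The log2 fold changes were 1.38 ± 0.036 for Nr4a1 (edgeR adjusted p = 1.65e-20), 1.27 ± 0.054 for Nr4a2 (edgeR adjusted p = 1.20e-15) and 3.46 ± 0.14 for Nr4a3 (edgeR adjusted p = 4.30e-08). By log2 fold change Nr4a3 was 5th of 14195 genes tested there. All 3 of 3 were called higher, against 0.845% of all genes tested in 1057. RC alone brought them to 35.1%, 25.7% and 14.6% of their GRP level.

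The response to RC alone did not reach a call in any other line. In 1014-Grpr, Nr4a3 was 10.7, 10.6 and 6.22 CPM with RC, at a log2 fold change of 1.14 ± 0.40 (edgeR adjusted p = 1.00, unadjusted p = 0.0161). Nr4a1 (166, 165 and 148 CPM) and Nr4a2 (10.0, 8.67 and 8.91 CPM) overlapped mock there, at log2 fold changes of 0.08 ± 0.13 and 0.06 ± 0.16. In 1064 the log2 fold changes were 1.11 ± 0.54, 0.72 ± 0.32 and 1.27 ± 0.86 for Nr4a1, Nr4a2 and Nr4a3 (edgeR adjusted p = 1.00 for each). In 1181-Grpr they ran from 0.02 to 0.24. The counts of 0 called, against 0% of all genes tested in each of these lines, were also 0 in DESeq2 and in limma on log2(TPM + 1). An unadjusted edgeR p under 0.05 was found for 1, 0 and 1 of the 3 genes in 1064, 1181-Grpr and 1014-Grpr. Over all genes tested it was found for 130 of 13794, 33 of 14506 and 159 of 13730. Whether the effect of RC differs between lines was not tested.

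A single test of the mean over the 4 lines with Grpr gave one call for RC against mock. Nr4a3 was higher by 1.54 ± 0.28 on the log2 scale (edgeR adjusted p = 0.0179, 16596 genes tested), and it was the only gene called, 0.00603% of those tested. Nr4a1 at 0.65 ± 0.15 (edgeR adjusted p = 0.0803) and Nr4a2 at 0.52 ± 0.13 (edgeR adjusted p = 0.174) were not called. Both were under the fold limit, at DESeq2 adjusted p = 0.00428 and 0.0212. With the replicate number of each line as a block the edgeR adjusted p was 0.000155 and 0.00125. Without the 2 libraries in doubt it was 0.0451 and 0.0732. Leaving out 1 replicate number gave edgeR adjusted p of 0.197 or more for Nr4a1 and 0.496 or more for Nr4a2. The Nr4a3 call was lost without replicate 1 (1.40, edgeR adjusted p = 0.735) and without replicate 3 (1.67, edgeR adjusted p = 0.153), and kept without the 2 libraries in doubt (1.54, edgeR adjusted p = 0.00731), and the mean joins a log2 fold change of 3.46 in 1057 with 0.24 in 1181-Grpr.

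Adding GRP to RC gives a comparison that shares no library with GRP against mock. In 1057, GRP+RC stood above RC in every library of each gene, at 857, 890.4 and 852 CPM for Nr4a1, 64.1, 64.8 and 65.5 CPM for Nr4a2 and 131, 136 and 137 CPM for Nr4a3. The log2 fold changes were 1.11 ± 0.035 for Nr4a1 (edgeR adjusted p = 2.68e-18), 1.41 ± 0.044 for Nr4a2 (edgeR adjusted p = 2.68e-18) and 2.11 ± 0.087 for Nr4a3 (edgeR adjusted p = 5.15e-08). All 3 of 3 were called higher, against 0.845% of all genes tested. In one fit of all 72 libraries only Nr4a2 was called, with edgeR adjusted p = 0.164 for Nr4a1 and edgeR adjusted p = 0.0983 for Nr4a3. In the fit of the line itself, GRP at 10 nM still raised the 3 genes in 1057 in the presence of 1 µM RC.

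In 1014-Grpr the GRP+RC libraries held 191, 201 and 179.8 CPM of Nr4a1, 14.1, 13.8 and 13.8 CPM of Nr4a2 and 24.6, 25.3 and 15.1 CPM of Nr4a3. The log2 fold changes were 0.25 ± 0.13 (edgeR adjusted p = 0.761), 0.60 ± 0.16 (edgeR adjusted p = 0.308) and 1.25 ± 0.36 (edgeR adjusted p = 0.383), and 0 of 3 were called, against 0% of all genes. With the replicate number as a block, which pairs the libraries of this line, Nr4a3 was called at 1.25 ± 0.17 (edgeR adjusted p = 0.00322). In 1064 the 3 genes stood at 0.38 ± 0.54, 0.25 ± 0.32 and 0.45 ± 0.85 and in 1181-Grpr between -0.15 and 0.42, with 0 of 3 called in either line against 0% of all genes. Over these 3 lines DESeq2 and limma on log2(TPM + 1) also called 0. The unadjusted edgeR p was under 0.05 for 2 of 3 genes in 1014-Grpr and for 0 of 3 in 1064 and 1181-Grpr. Over all genes tested that p was under 0.05 for 947 of 13730 in 1014-Grpr, 24 of 13794 in 1064 and 257 of 14506 in 1181-Grpr.

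Over the 4 lines with Grpr, the mean of GRP+RC against RC was 0.39 ± 0.15 for Nr4a1 (edgeR adjusted p = 0.661), 0.66 ± 0.13 for Nr4a2 (edgeR adjusted p = 0.0249) and 0.98 ± 0.27 for Nr4a3 (edgeR adjusted p = 0.254). None of the 3 was called, since Nr4a2 was under the fold limit, and 0.0121% of all genes tested were called. DESeq2 called 0 as well. Its fold changes were under the limit, at DESeq2 adjusted p = 0.423 for Nr4a1, 0.000111 for Nr4a2 and 0.0436 for Nr4a3. With the replicate number of each line as a block edgeR also called 0 under that limit. There the edgeR adjusted p was 0.0135, 2.06e-05 and 1.10e-04 in that order. Leaving out 1 replicate number gave edgeR adjusted p of 0.294 or more for each of the 3 genes. Without a block all 3 had an unadjusted edgeR p under 0.05, as did 942 of 16596 genes tested.

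Against mock, whose libraries it shares with the choosing contrast, GRP+RC gave calls for 3 of 3 genes in 1057 (3.02% of all genes tested), 1 of 3 in 1014-Grpr (0.153%) and 0 of 3 in 1064 and 1181-Grpr (0% in both). In 1057 the log2 fold changes were 2.49 ± 0.036 for Nr4a1 (edgeR adjusted p = 2.02e-26), 2.68 ± 0.050 for Nr4a2 (edgeR adjusted p = 2.47e-24) and 5.57 ± 0.12 for Nr4a3 (edgeR adjusted p = 7.62e-11). In 1014-Grpr the called gene was Nr4a3, at 2.39 ± 0.39 (edgeR adjusted p = 0.0176), while Nr4a1 stood at 0.34 ± 0.13 (edgeR adjusted p = 0.299) and Nr4a2 at 0.66 ± 0.16 (edgeR adjusted p = 0.0824). That call was lost without replicate 1 (2.44, edgeR adjusted p = 0.289), without replicate 2 (2.44, edgeR adjusted p = 0.189), without the filter on low counts (edgeR adjusted p = 0.0814) and in one fit of all 72 libraries (edgeR adjusted p = 0.0773). In 1064, where 2 of 3 genes had an unadjusted edgeR p under 0.05 and DESeq2 and limma called 0, the log2 fold changes were 1.49 ± 0.55, 0.97 ± 0.32 and 1.72 ± 0.87 (edgeR adjusted p = 1.00 for each). That unadjusted p was reached by 350 of 13794 genes tested in this line. In one fit of all 72 libraries Nr4a1 was called there (edgeR adjusted p = 0.0172). In 1181-Grpr none of the 3 had an unadjusted p under 0.05 (262 of 14506 genes tested did), and the same tools called 0.

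The degree to which RC lowered the level reached with GRP is again descriptive, because GRP+RC against GRP reuses the GRP libraries. In 1057, GRP+RC kept 75.6% of the GRP level of Nr4a1, 68.4% of Nr4a2 and 62.9% of Nr4a3. In 1014-Grpr it kept 45.0%, 30.8% and 22.3%, and in 1064 44.5%, 31.4% and 36.4%. Among these 3 lines the percentage of each gene was highest in 1057. In 1181-Grpr, where GRP gave no call, it was 86.9%, 106% and 68.0%. Of the 3 genes, 0 were called lower in 1057 (0.761% of all genes tested), 0 in 1064 (0.0145%), 0 in 1181-Grpr (0%) and 3 in 1014-Grpr (1.59%). In 1057 all 3 had an unadjusted edgeR p under 0.05, as did 4907 of 14195 genes tested. The log2 fold changes there were -0.40, -0.55 and -0.67 for Nr4a1, Nr4a2 and Nr4a3, inside the fold limit, and DESeq2 and limma called 0 too. In 1014-Grpr they were -1.15, -1.70 and -2.16, and without replicate 1 the call of Nr4a3 was lost at -2.32. In 1064 they were -1.17, -1.67 and -1.46, where 1 of 3 had an unadjusted p under 0.05 (1373 of 13794 genes tested did) and DESeq2 called 1 and limma 0. With the replicate number as a block, which pairs the 1064 libraries, all 3 were called in 1064, at -1.23, -1.69 and -1.66. In 1181-Grpr none of the 3 had an unadjusted p under 0.05 (311 of 14506 genes tested did), and DESeq2 and limma called 0.

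In 1064 the libraries were also compared within each replicate number, which pairs them in this line. With RC, Nr4a1 was 1149, 564 and 298 CPM, Nr4a2 was 37.2, 29.8 and 16.4 CPM and Nr4a3 was 521, 115 and 135 CPM in replicates 1, 2 and 3. The log2 ratios of RC to the mock library of the same number were 1.63, 1.67 and -0.36 for Nr4a1, 1.09, 0.98 and -0.15 for Nr4a2 and 1.88, 2.50 and -0.22 for Nr4a3. RC was therefore above mock for all 3 genes in replicates 1 and 2 and below it for all 3 in replicate 3. GRP was above mock in every replicate, with log2 ratios for Nr4a3 of 3.19, 4.49 and 2.86. With GRP+RC, the 3 replicates held Nr4a1 at 1452, 593 and 575 CPM, Nr4a2 at 43.97, 33.9 and 21.2 CPM and Nr4a3 at 684, 129 and 239 CPM. At rest all 3 genes were lowest in replicate 2, whereas under GRP Nr4a1 and Nr4a3 were lowest in replicate 2 and Nr4a2 in replicate 3.

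**Figure D4:**
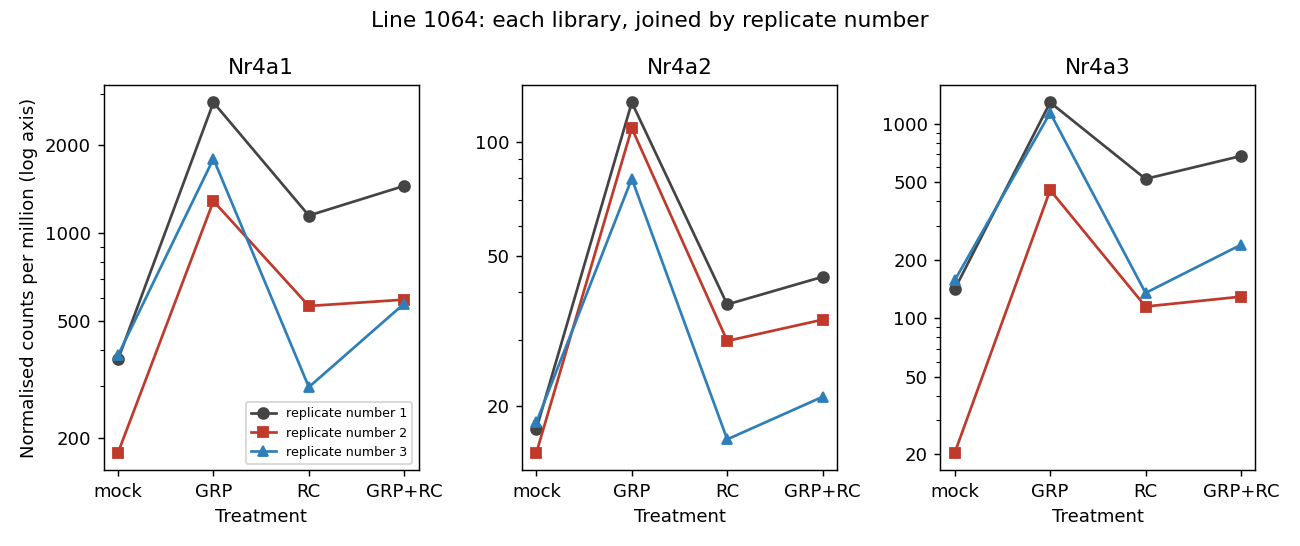
CPM (log axis) of the 3 NR4A genes in line 1064 under each treatment, with a line joining the libraries of the same replicate number. GRP lies above mock in all 3 replicates, while RC lies above mock in replicates 1 and 2 and below it in replicate 3 for every gene.

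In 1181-Grpr no NR4A gene was called in any contrast, and no gene at all was called higher for GRP against mock. Nr4a3 was 4.50, 8.40 and 6.31 CPM in mock and 13.2, 12.3 and 11.2 CPM with GRP, at a log2 fold change of 0.94 ± 0.28 (SE). Nr4a1 (331, 244 and 273 CPM in mock, 337, 264 and 289.8 CPM with GRP) and Nr4a2 (6.59, 4.62 and 5.79 CPM in mock, 9.69, 6.27 and 5.81 CPM with GRP) overlapped mock. For GRP against mock 1 of 3 genes had an unadjusted edgeR p under 0.05 (44 of 14506 genes tested did), and DESeq2 and limma called 0. In the library labelled GRP+RC replicate 2, which held no Grpr, Nr4a1 was 171 CPM against 328 and 275 CPM in the other libraries of that group, and without it the log2 fold changes over all contrasts of this line ran from -0.62 to 0.94 with 0 called.

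The control lines, in which Grpr was at or near 0, gave no call for any NR4A gene in 5 contrasts, against 0% of all genes tested in every one. The log2 fold changes lay between -0.13 and 0.63 in 1181-Ctrl. Those of 1014-Ctrl lay between -0.66 and 0.40, where leaving out the mock library in doubt changed the range to -0.20 to 0.54. None of the 30 values had an unadjusted edgeR p under 0.05 (lowest 0.0811), and DESeq2 and limma also called 0. Per contrast, 34 to 40 of 14188 genes tested had such a p in 1181-Ctrl and 59 to 685 of 13755 in 1014-Ctrl. Nr4a3 in 1181-Ctrl was 1.31, 0.843 and 2.93 CPM in mock and 2.28, 0.698 and 2.63 CPM with GRP, which places it near the lowest levels measured. Nr4a1 was 467, 439 and 373 CPM in mock and 498, 407 and 382 CPM with GRP in the same line, so the most abundant NR4A gene of that line differed little between them.

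The difference itself was tested for GRP+RC against RC between the Grpr and Ctrl versions of each line. In 1014 the Grpr version exceeded the Ctrl version by 0.31 ± 0.30 for Nr4a1, 0.72 ± 0.26 for Nr4a2 and 1.18 ± 0.60 for Nr4a3 on the log2 scale (edgeR adjusted p = 1.00 for each, with an unadjusted p of 0.0114 for Nr4a2). In 1181 the differences were -0.02 ± 0.27, 0.51 ± 0.45 and 0.01 ± 0.65 (edgeR adjusted p = 1.00 for each), and 0.20, 0.33 and -0.06 without the library in doubt. No gene was called in either line (0% of all tested), and 1 NR4A gene in 1014 and 0 in 1181 had an unadjusted p under 0.05. Over all genes tested, 321 of 14204 in 1014 and 165 of 15041 in 1181 had such a p. Other tools were not run on this difference.

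The balance between the paralogs shifted with treatment. Nr4a3 made up 0.725% ± 0.107 of the summed NR4A TPM in 1057 mock libraries, 6.86% ± 0.454 with GRP, 3.01% ± 0.292 with RC and 5.80% ± 0.153 with both (SD, n = 3). In 1014-Grpr the percentages were 1.04% ± 0.325, 7.92% ± 1.80, 2.22% ± 0.491 and 4.28% ± 0.929 in the same order. In 1064 they were 10.6% ± 5.45, 16.1% ± 4.07, 12.8% ± 4.56 and 12.8% ± 4.24, all overlapping within their spread. Nr4a3 was below Nr4a2 in all 3 mock libraries of 1057 and above it in all 3 GRP libraries, and over all lines it was above Nr4a2 in 4 of 18 mock and 10 of 18 GRP libraries. In 1064 it was above Nr4a2 in 11 of 12 libraries.

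The log2 ratio of Nr4a3 to Nr4a1 TPM measures this balance within a library and does not depend on library size. From mock to RC it went up by 2.09 in 1057 and by 1.14 in 1014-Grpr, and from RC to GRP+RC by 1.01 and 0.99. For each the exact two-sided permutation p was 0.1, the smallest that 3 against 3 libraries allow. This test could not reach 0.05, so nothing is read from it. The shifts from mock to RC also reuse the mock libraries of the choosing contrast. In 1064 the same shifts were 0.41 (exact permutation p = 0.5) and 0.01 (exact permutation p = 1), with overlapping groups. Within the pairs of 1064, which this permutation does not use, the ratio went up from mock to RC in all 3, by 0.25, 0.83 and 0.15, and from RC to GRP+RC it moved by 0.05, 0.10 and -0.13. The ratio of Nr4a2 to Nr4a1 moved less, by -0.11 in 1057 (exact permutation p = 0.3) and -0.02 in 1014-Grpr (exact permutation p = 0.8) from mock to RC. From RC to GRP+RC it went up by 0.31 in 1057 and 0.34 in 1014-Grpr, with groups apart (exact permutation p = 0.1 for each, again the smallest possible). In 1064 that shift was -0.19 (exact permutation p = 0.8), with overlapping groups. The p-values are not adjusted, and TPM ratios of genes of unlike length depend on the transcript models used.

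**Figure D5:**
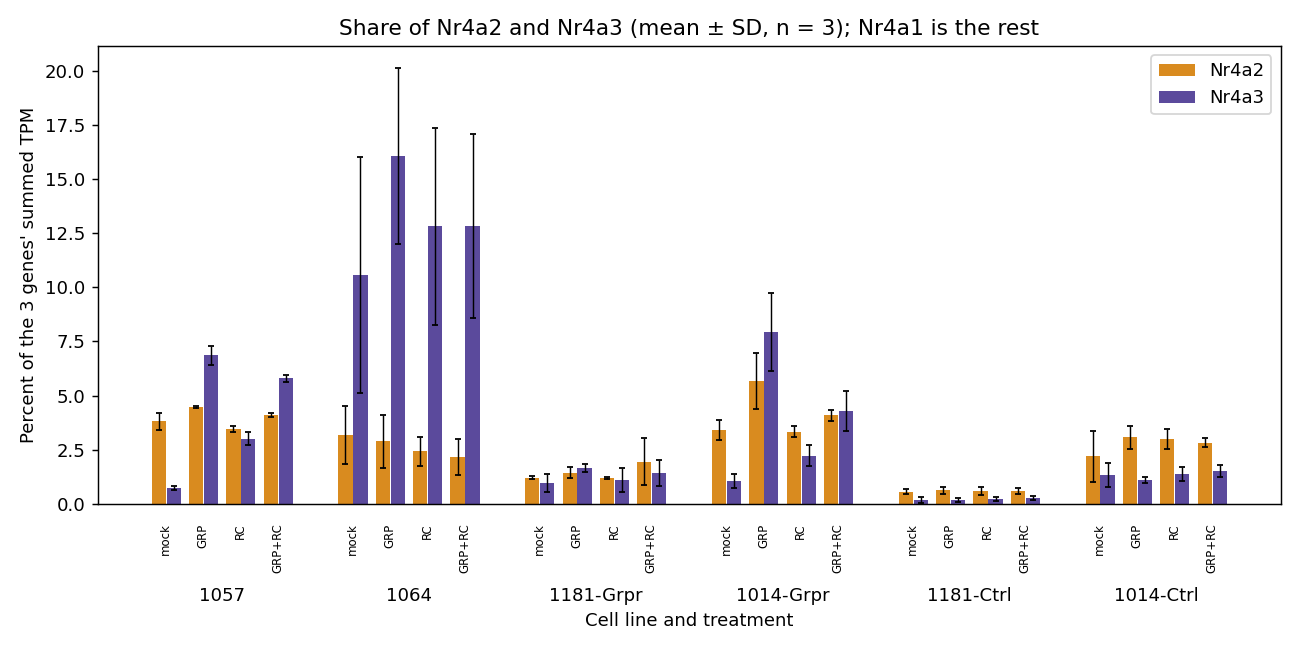
Percent of the summed TPM of the 3 NR4A genes taken by Nr4a2 and Nr4a3 in each line and treatment (bars, mean; error bars, SD; n = 3), Nr4a1 being the rest. The Nr4a3 bar of 1057 goes from 0.725% in mock to 6.86% with GRP, and 1064 holds the largest Nr4a3 percentages in every treatment.

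Across all 72 libraries the 3 genes tracked each other, with Pearson's r of 0.908 between Nr4a1 and Nr4a2, 0.915 between Nr4a1 and Nr4a3 and 0.903 between Nr4a2 and Nr4a3 on log2(CPM + 1) relative to the mock mean of each line. These correlations, like those that follow, include the GRP libraries that chose the genes and are descriptions only. The 5 genes most like each member by the same measure, out of 16596, made 11 genes in all, and none was another NR4A gene. Nearest to Nr4a1 were Cfap43 (r = 0.972), Nfil3 (r = 0.947), a basic leucine zipper repressor, Stc1 (r = 0.944), the secreted hormone stanniocalcin, Slc23a2 (r = 0.936), an ascorbate transporter, and Sec24b (r = 0.935), a component of the COPII vesicle coat. Nearest to Nr4a2 were Rgs2 (r = 0.972), which shortens Gq signalling, Fosl2 (r = 0.959), an AP-1 subunit, the phosphatase gene Ptp4a1 (r = 0.954), the kinase gene Rock2 (r = 0.939) and Cfap43 (r = 0.938). Nearest to Nr4a3 were Fosl2 (r = 0.954), the small GTPase gene Rap1b (r = 0.934), Litaf (r = 0.924), Slc23a2 (r = 0.923) and Stc1 (r = 0.921). With TPM in place of CPM 14 of the 15 entries stayed.

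Of these 11 genes, 10 were called higher with GRP in 1057 (4.96% of all genes tested), 8 in 1064 (1.49%), 6 in 1014-Grpr (3.15%) and 0 of the 10 tested in 1181-Grpr (0%). For RC against mock 4 of 11 were called in 1057 (0.845%) and 0 in 1064 and 1014-Grpr (0% in both). For GRP+RC against RC 2 of 11 were called in 1057 (0.845%), and all 11 had a log2 fold change above 0 in 1057, 1064 and 1014-Grpr. Since likeness to the NR4A genes selected them, these counts only describe the pattern.

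Members of the rest of the nuclear receptor superfamily were called in both directions. Of 46 further receptor genes, 30 were measured well enough to be tested in 1057 and 28 in 1064 and in 1014-Grpr. For GRP against mock in 1057, Rorb (log2 fold change 1.79) and Vdr (1.41), the vitamin D receptor, were called higher and Thrb (-1.27), a thyroid hormone receptor, was called lower. These were 3 of 30, where 6.46% of all genes tested were called either way. In 1064, Nr1d1 (-1.66), the circadian repressor Rev-erb alpha, and Nr2f2 (-1.10) were called lower, 2 of 28 beside 2.28% of all genes, and in 1014-Grpr 0 of 28 were called beside 3.99%. The median log2 fold change of the list was -0.25, -0.31 and -0.24 in 1057, 1064 and 1014-Grpr, beside -0.01, -0.02 and -0.02 over all genes tested. With GRP+RC against mock Rorb (1.24) and Vdr (1.19) were called in 1057 (3.02% of all genes called higher), and no listed receptor was called for RC against mock or GRP+RC against RC in any line.

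Genes around the NR4A family gave at most 2 calls in a list and line, to be read beside the same shares of all genes. Among CREB and its coactivators (8 genes, all tested), Crem was called higher in 1057 with GRP (1.66) and with GRP+RC (1.60), and no other member was called in any line. A further list held MEF2 factors, the class IIa histone deacetylases that restrain them and Cabin1 (9 genes, 8 tested in 1057). In it Hdac4 was called in 1057 (1.18) and Hdac5 (1.15) and Hdac9 (2.04) in 1014-Grpr with GRP. Hdac9 was low in 1014-Grpr, at 0.691 ± 0.199 CPM in mock and 2.81 ± 1.06 CPM with GRP (SD, n = 3). In 1057, where its mock mean was 87.5 CPM, its log2 fold change with GRP was -0.23, and in 1064 it was 2.09 ± 1.15 (SE), neither called. The median of that list was 0.15, 0.56 and 0.51 in 1057, 1064 and 1014-Grpr. Of 10 textbook NR4A target genes, 4 were expressed enough to be tested in 1057 and in 1064 and 2 in 1014-Grpr, and Spp1, which encodes osteopontin, was called in 1057 with GRP (1.83) and with GRP+RC (1.13). None of these lists had a call for RC against mock or for GRP+RC against RC.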

How the data were processed

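The 72 libraries were poly(A)-selected stranded RNA sequenced in pairs. The authors aligned reads with STAR to GRCm38 with GENCODE M13 annotation and deposited raw counts per gene and TPM (the deposited TPM of 12 columns, all of line 1057, use a decimal comma). FastQC 0.11.5 is named in the submitters' processing notes. The 3 NR4A rows were found by Ensembl ID (224 of 50600 IDs matched no gene name). Member counts ran from 20 to 73451 per library, and replicates differed beyond counting noise in every group (lowest chi-square per degree of freedom 2.44).

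The counts were fitted within each line with edgeR 4.0.16 in R 4.3.3 (filterByExpr, TMM, robust quasi-likelihood test). All 3 genes passed the filter in all 6 lines (13730 to 14506 genes). SE was the absolute log2 fold change over the square root of F. A call combined the Benjamini-Hochberg threshold of 0.05 with the fold limit of the study, 1 on the log2 scale. CPM use TMM library sizes within a line for the NR4A genes and over all libraries for Grpr and markers. The mean over 4 lines used a fit of all 72 libraries, and the differences between versions a fit of both versions of a line. Alternatives were DESeq2 1.42.0, limma 3.58.1 on log2(TPM + 1) and log2(TPM + 0.1), other scaling, no filter, a replicate block, leaving out each replicate number or the 2 libraries in doubt, and no fold limit. The fits were tested on simulated data. Named genes were the 3 members, the 5 most similar to each by Pearson's r, and listed genes called in at least 2 Grpr lines or, there being none, in 1. The members and lists were chosen with earlier results of these data known.

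Replicate numbers were taken as pairing the libraries where every same-number correlation of deviations from group means was over 0.1, which held in 1064 (mean r 0.733), 1014-Grpr (0.468) and 1181-Ctrl (0.792) and not in 1057 (0.023), 1181-Grpr (0.404) or 1014-Ctrl (0.312). The pairing comes from this check, not from the labels. Nothing in the labels places replicates in separate cultures or days, so p-values measure only the spread between these libraries. Gene positions are from GENCODE M21 and promoter windows from RefSeq GRCm38.p6, both on the build of the counts.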

Additional observations from a re-analysis of the deposited data

How the results depend on the processing

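For the 4 lines with Grpr, leaving out each replicate number in turn gave 6 to 7 NR4A calls for GRP against mock (8 in the full data), 3 for RC against mock, 3 to 4 for GRP+RC against mock, 3 for GRP+RC against RC and 2 to 3 for GRP+RC against GRP, 0 in the control lines, and, for the mean over 4 lines, 0 to 1 for RC against mock and 0 for GRP+RC against RC. Among values given singly, 3 changed sign, none of them called in any setting. Nr4a2 in 1014-Grpr for RC against mock ran from -0.0722 to 0.178 when 1 replicate number was left out. The 1181 difference ran from -0.127 to 0.0618 for Nr4a1 and from -0.146 to 0.313 for Nr4a3 when 1 was left out, and was 0.196 and -0.0557 without the 2 doubtful libraries. In the lines given as ranges, 8 of 156 values under the alternatives in 1181-Grpr, 13 of 195 in 1181-Ctrl and 18 of 195 in 1014-Ctrl had the opposite sign, at most 0.535 in size, and 0 were called. GRP+RC against RC gave 1 call in place of 3 in one fit of all 72 libraries. GRP+RC against GRP gave 3 calls in the per-line fits, 6 with the replicate block, 6 with the block and the 2 doubtful libraries left out, 5 in the fit of 72 libraries and 6 with the adjusted p alone. For the mean of GRP+RC against RC, the adjusted p alone gave 1 call in place of 0. Beside those named with the results, the replicate block changed no other call, and it gave 9 calls for GRP against mock and 4 for GRP+RC against RC. The causes of these changes were not tested. Over all alternatives of the values given singly, 659 kept direction and call, 15 lost the call, 22 gained it and 6 changed sign. The 3 libraries a group limit what 1064 can show, where the SE of Nr4a3 reached 0.92 on the log2 scale. Low levels limit Nr4a3 in 1181-Ctrl.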
